A study of Mus musculus with 8 samples.

Results

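The Cilp Grem1 annulus cells were a set of cells of the 8-week mouse intervertebral disc, named for 2 of the genes that picked them out. They were chosen by a rule on their own counts. A cell had to hold at least 500 genes, at least 1000 UMIs (unique molecular identifiers, each a counted transcript) and at most 15% mitochondrial UMIs. It had to hold under 30 UMIs of Car3 and under 10 of Krt8, Krt18 and Krt19 together, which set aside cells marked by these nucleus pulposus genes. It also had to hold at least 2 UMIs of at least 3 of Cilp, Dmkn, Grem1, Cytl1 and Mmp3, and more of these 5 genes than of any of 3 other lists of 5. Of 6481 kept cells at 8 weeks, 685 met the rule, which is 10.6% (exact binomial 95% interval 9.83 to 11.3). They were 685 of 4078 cells under the Car3 and keratin limits, and the series held 13480 kept cells at both ages.

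The study used droplet-based single-cell RNA sequencing of whole discs at 8 weeks and at postnatal day 10 (P10), and asked what cells that had once expressed Tagln give rise to. All mice at both ages were Tagln-CreERt2;R26tdTomato, a line in which the Tagln promoter drives an inducible Cre that switches on a red reporter, and all received tamoxifen at P5. Each age has 4 listed samples of discs L1 to L6 and T5 to T9, digested with Dispase and type II collagenase, but the deposited matrix of an age does not tell its samples apart. Each age was therefore 1 library with no replicate, no test was possible, and every interval below covers counting error only. At 8 weeks the cells were compared with 3 other sets chosen by the same kind of rule: 642 Clec3b Cilp2 cells (Clec3b, Igfbp6, Cilp2, C1qtnf7, Prg4), 562 Hp Apod Notum cells (Hp, Pcp4, Apod, Notum, Lef1) and 609 Panx3 Fxyd2 cells (Panx3, Fxyd2, Prkg2, Slc13a5, Il17b). At P10 they were compared with 72 cells that met the rule of the members and with 692 cells called P10 outer annulus cells here, chosen by at least 3 of Tnmd, Scx, Mkx, Kera and Thbs4.

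The annulus fibrosus is the layered ring around the nucleus pulposus. Its outer lamellae are rich in type I collagen and resemble tendon, while its inner part carries the type II collagen and aggrecan of cartilage. Versican, hyaluronan and small proteoglycans fill the space between lamellae, and bone morphogenetic proteins and their secreted antagonists act on cells of the ring during growth and repair.

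The 8-week library held 7597 barcodes and 115097999 UMIs, and the P10 library 7690 barcodes and 143203550 UMIs. The Cilp Grem1 cells held a median of 13464 UMIs (range 1451 to 89335), 3327 genes and 2.46% mitochondrial UMIs. Medians were 14805.5 UMIs in Clec3b Cilp2 cells, 14586 in Hp Apod Notum cells, 24027 in Panx3 Fxyd2 cells, 34632.5 in the P10 cells of the same rule and 15846 in P10 outer annulus cells. The libraries shared 10 barcodes, against 6.68 given by the size of the barcode list, and 1 of them was a Cilp Grem1 cell. Scrublet, a doublet caller, marked 139 of 6481 cells at 8 weeks, 4 of them among the Cilp Grem1 cells. It marked 0 cells at P10 and so did not work there, and no marked cell was removed.

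The genes that chose the cells are given as a description. Levels are summed UMIs of a set of cells divided by all gene UMIs of that set, times 1000000 (CPM). Cilp (chromosome 9, 65265180 to 65280605, plus strand, mm10), a matrix protein that binds TGF-beta and IGF1, stood at 1069 CPM in Cilp Grem1 cells, against 65.9 in Clec3b Cilp2, 16.7 in Hp Apod Notum and 10.7 in Panx3 Fxyd2 cells. Grem1 (chromosome 2, 113746164 to 113758646, minus strand), a secreted BMP antagonist, stood at 1679 CPM against 323, 206 and 45.6 in the same order of sets. Dmkn (chromosome 7, 30763756 to 30781063, plus strand), a secreted protein first described in skin, stood at 1273 CPM against 251, 7.84 and 5.33. Cytl1 (chromosome 5, 37735519 to 37739820, plus strand), a cytokine-like protein of cartilage, stood at 2724 CPM against 463, 299 and 444. Mmp3 (chromosome 9, 7445822 to 7455975, plus strand), stromelysin, which cleaves proteoglycans, stood at 1318 CPM against 213, 57.7 and 12.4. Vcan (chromosome 13, 89655312 to 89742509, minus strand), versican, which the rule did not use, stood at 5364 CPM against 2469, 66.2 and 27.2. These 6 genes were higher in the Cilp Grem1 cells than in each of the 3 sets, but Cytl1 was also found in 63.9% of Panx3 Fxyd2 cells and Vcan in 94.4% of Clec3b Cilp2 cells.

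**Figure D1:**
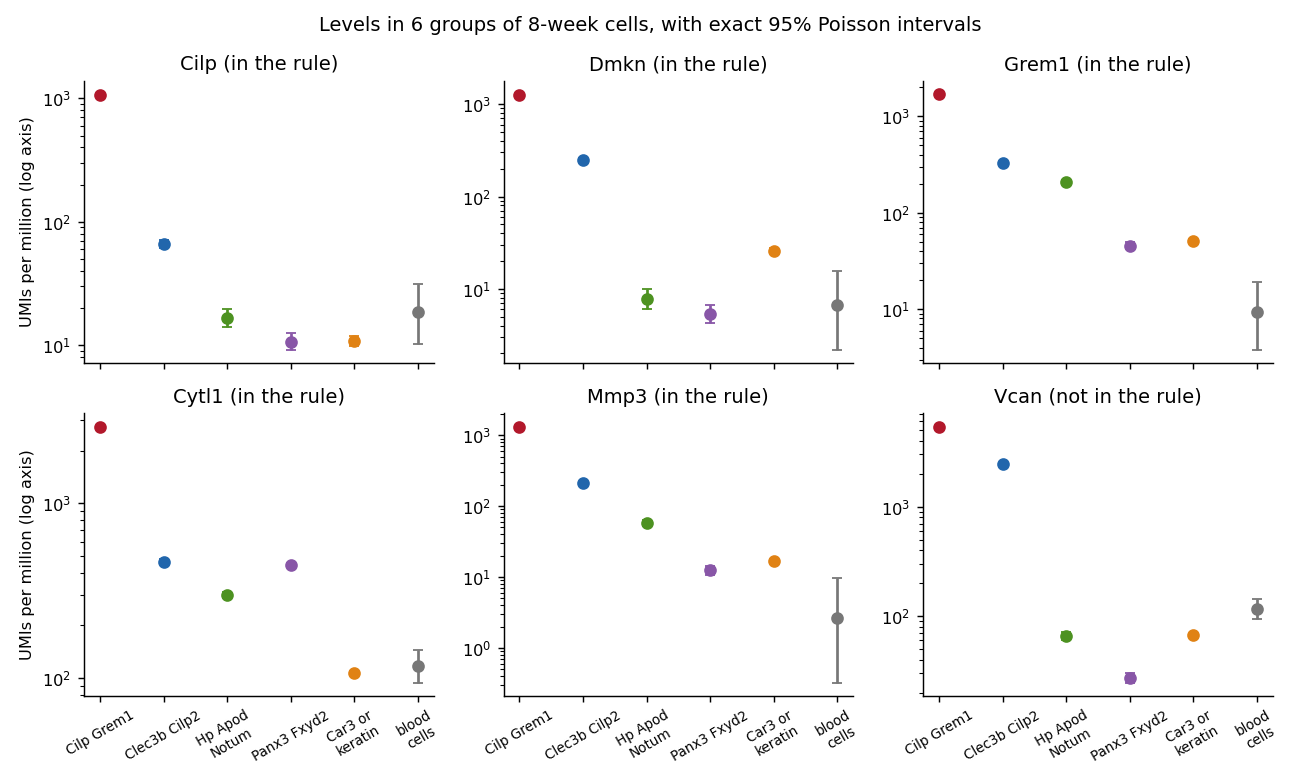
Level of the 5 genes of the rule and of Vcan (UMIs per 1000000 gene UMIs, log axis) in the Cilp Grem1 cells and the other sets, with exact 95% Poisson intervals. The Cilp Grem1 points lie highest for each gene, from 1069 for Cilp to 5364 for Vcan, as the choice of the cells fixes for the 5 rule genes.

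The genes of the rule were not carried by every Cilp Grem1 cell. Exactly 3 of the 5 genes were present in 259 cells, 4 in 292 and all 5 in 134 (19.6%). Grem1 reached 2 UMIs in 94.6% of the cells, Dmkn in 80.3%, Mmp3 in 77.8%, Cytl1 in 77.5% and Cilp in 51.5%. Cilp, which gives the set its name, was absent in 43.1% of the cells, and 225 cells with at least 10 Cilp UMIs held 94.6% of all Cilp UMIs. Vcan was found in 99.4% of the cells, with a median of 5479 CPM per cell and 2473 to 9431 CPM between the 10th and 90th percentiles. Cilp had a median of 114 CPM per cell and a 90th percentile of 3799 CPM, so its spread over cells was far wider than that of Vcan.

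Each gene was also left out of the rule in turn and read in the cells chosen by the other 4. Each was present in a larger share of these than of the other cells under the Car3 and keratin limits. The list of genes was chosen with earlier results of these data known, so the shares describe it and test nothing. Grem1 reached 2 UMIs in 90.2% of 377 cells selected on the other 4 genes, against 38.6% of the other cells. The share for Dmkn was 71.0% of 465 cells against 15.8%. Cytl1 reached 2 UMIs in 67.5% of 474 cells against 27.2%, and Mmp3 in 67.0% of 460 cells against 17.4%. The share was lowest for Cilp, at 41.2% of 565 cells against 9.54%. Median depth was 13322 to 13806 UMIs in the chosen cells and 14207 to 14350 in the other cells.

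**Figure D2:**
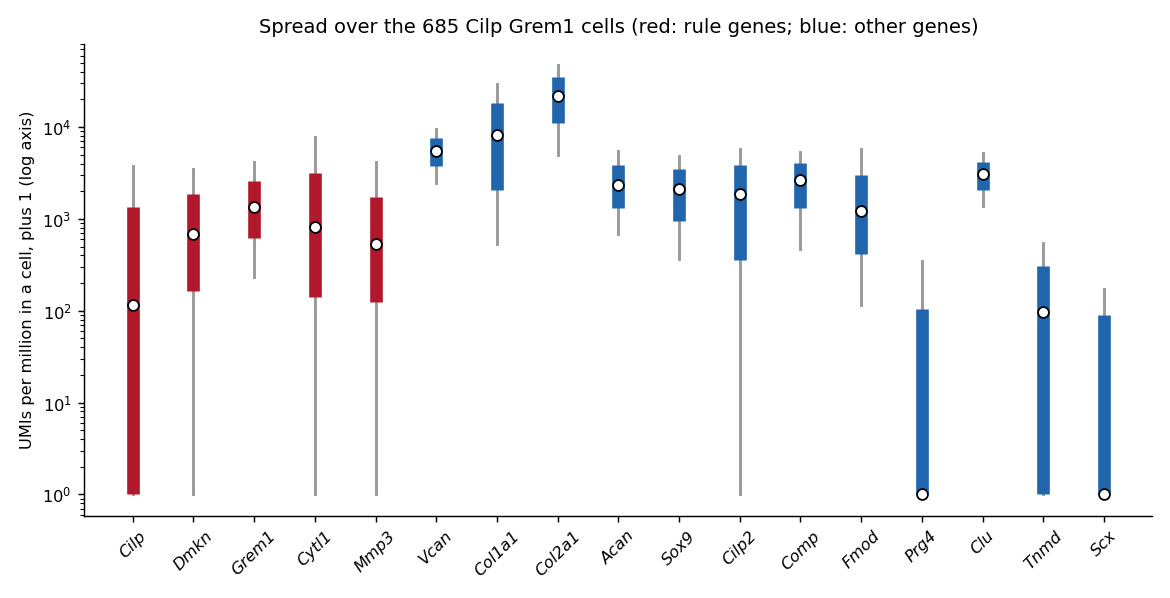
Level per cell (UMIs per 1000000 of the cell's own gene UMIs) of the rule genes, Vcan and other genes over the 685 Cilp Grem1 cells, plus 1 on a log axis. Open circles are medians, thick bars the 25th to 75th and thin lines the 10th to 90th percentiles; Vcan spans 2473 to 9431, while Cilp reaches 0 at its low end and 3799 at its high end.

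Many of the cells also carried genes of the Clec3b Cilp2 list. At least 1 gene of the Clec3b Cilp2 list reached 2 UMIs in 574 of the 685 cells (83.8%), and at least 2 did in 312. Just inside the border were 104 cells with 3 rule genes and 2 of another list, with Cilp at 247, Grem1 at 2018, Vcan at 4582 and Col1a1 at 20673 CPM. Just outside were 126 cells with at least 3 rule genes and as many of another list, with Cilp at 161, Grem1 at 1021, Vcan at 3451 and Col1a1 at 40562 CPM. A further 182 cells with 2 rule genes and fewer of any other list had Cilp at 850, Vcan at 5671 and Col1a1 at 7150 CPM. In those 182 cells Dmkn stood at 349 and Cytl1 at 1001 CPM, against 1127 and 1687 CPM in the Cilp Grem1 cells with 3 rule genes. All of these but Vcan and Col1a1 belong to the rule, which fixes part of such differences.

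The regions just before the annotated starts of Mmp3 and Dmkn are shown because both hold the AP-1 motif, the site of the Fos and Jun proteins whose genes are described further on. The sequences come from RefSeq (GRCm38.p6), 250 bases up to the start, 5′ to 3′ on the plus strand. Capitals mark TGAGTCA, which is the AP-1 motif TGACTCA read on the other strand, and TATAAA. The first is Mmp3 at chr9:7445572-7445821, and the others are the first and last of 3 listed Dmkn starts, at chr7:30763506-30763755 and chr7:30776155-30776404.
Mmp3: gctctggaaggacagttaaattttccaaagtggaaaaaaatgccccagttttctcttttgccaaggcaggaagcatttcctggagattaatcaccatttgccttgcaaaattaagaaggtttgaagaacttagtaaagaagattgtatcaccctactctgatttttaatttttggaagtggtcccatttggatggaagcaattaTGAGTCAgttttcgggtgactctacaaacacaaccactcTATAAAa
Dmkn first start: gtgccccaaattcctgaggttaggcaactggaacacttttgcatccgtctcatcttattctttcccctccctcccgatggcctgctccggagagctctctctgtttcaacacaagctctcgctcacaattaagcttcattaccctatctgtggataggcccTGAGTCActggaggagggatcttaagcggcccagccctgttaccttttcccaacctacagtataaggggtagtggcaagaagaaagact
Dmkn last start: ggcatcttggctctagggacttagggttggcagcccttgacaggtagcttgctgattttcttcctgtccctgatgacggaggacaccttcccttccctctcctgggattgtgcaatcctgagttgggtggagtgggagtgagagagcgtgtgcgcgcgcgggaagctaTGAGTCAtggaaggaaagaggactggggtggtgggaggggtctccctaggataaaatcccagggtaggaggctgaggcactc
The motif began at position -46 from the Mmp3 start and at -89 and -82 from these Dmkn starts, and Mmp3 had TATAAA at -7. The other letters searched, on both strands, were ACAAAG for SOX factors, found at -188 in Grem1. None of the 3 motifs was present in the same window of Cilp, Cytl1 or Vcan. Over 32851 RefSeq promoter windows of 300 bases, 5.20% held the AP-1 motif, 13.6% the TATA motif and 18.7% the SOX motif. A match describes the letters of these windows and not binding.

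Against the Clec3b Cilp2 cells, the Cilp Grem1 cells held less RNA of fibrous collagens and more of type II collagen and aggrecan. A gene was compared where the sums of both sets together came to at least 100 UMIs, and a gene was counted as higher or lower at a 2-fold difference. Of 9369 genes, 885 (9.45%) were higher in Cilp Grem1 cells and 330 (3.52%) were lower, and the median gene differed by 0.18 (log2). Centred on that median gene the split was 654 higher and 440 lower. Against the Hp Apod Notum cells 871 of 9564 genes (9.11%) were higher and 1025 (10.7%) lower. Against the Panx3 Fxyd2 cells 1202 of 10304 genes (11.7%) were higher and 1474 (14.3%) lower. The Panx3 Fxyd2 cells were deeper by their median UMIs, and with every cell thinned to 2000 UMIs the split turned, to 462 higher and 372 lower. Among cells of 8000 to 30000 UMIs, a window chosen after seeing the data, it was 1085 higher and 1136 lower. These gene sets were compared in cells defined by some of the same genes, so the differences describe the sets and test nothing.

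Of 10 measured fibrillar and fibrous collagens, 7 were lower and 0 higher in Cilp Grem1 than in Clec3b Cilp2 cells, with a median log2 ratio of -2.08 against 0.18 for all genes. Col1a1, the main chain of type I collagen, stood at 14431 CPM in Cilp Grem1 cells against 75084 CPM in Clec3b Cilp2 cells, a log2 ratio of -2.38 (95% interval -2.39 to -2.37). Col3a1 stood at 948 against 5393 CPM. In the other direction, 4 of 8 cartilage collagens were higher and 0 lower. The 4 were Col2a1, Col9a3, Col11a2 and Col10a1, and 3 cells held the larger part of the Col10a1 UMIs. Col9a1 counted as within 2-fold, but its sum rested largely on 6 cells, as given below. Col2a1, the chain of type II collagen, stood at 25383 CPM in Cilp Grem1 cells and 8923 CPM in Clec3b Cilp2 cells, a log2 ratio of 1.51. Col1a1 was found in 98.8% and Col2a1 in 100% of Cilp Grem1 cells (median 13464 UMIs), against 59.6% and 76.6% of blood-type cells (median 6854 UMIs), which should lack both. The levels in blood-type cells were 137 CPM of Col1a1 and 2980 CPM of Col2a1.

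The same collagens set them apart from the Hp Apod Notum and Panx3 Fxyd2 cells in the other direction. Of 9 measured fibrous collagens, 7 were higher than in Hp Apod Notum cells (median log2 ratio 2.29) and 8 were higher than in Panx3 Fxyd2 cells (3.61), with 1 lower in each. Col1a1 was at 1279 CPM in Hp Apod Notum and 882 CPM in Panx3 Fxyd2 cells. Of 8 cartilage collagens, 6 were lower than in Hp Apod Notum cells and 7 were lower than in Panx3 Fxyd2 cells (median -3.94). Col2a1 itself differed little from Hp Apod Notum cells, which had 24977 CPM (log2 ratio 0.02, 0.02 to 0.03). Col9a1, a chain of the collagen that coats type II fibrils, stood at 65.9 CPM in Cilp Grem1 cells, against 1790 CPM in Hp Apod Notum and 6100 CPM in Panx3 Fxyd2 cells, and was found in 23.9% of Cilp Grem1 cells. Summed over all Cilp Grem1 cells, Col9a1 was near the level of the Clec3b Cilp2 cells, which had 75.5 CPM. That sum rested largely on the 6 cells of sub-group 6, described further on. They held 446 Col9a1 UMIs against 305 in the rest of the Cilp Grem1 cells, which stood at 27.1 CPM. Col2a1 was near the level of the Hp Apod Notum cells.

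Proteoglycans and the genes of hyaluronan divided against the Clec3b Cilp2 cells, with aggrecan and hyaluronan genes higher and small proteoglycans lower. Of 11 measured hyalectan and hyaluronan genes 7 were higher and 1 was lower. Acan, aggrecan, stood at 2650 CPM in Cilp Grem1 cells and 776 CPM in Clec3b Cilp2 cells (log2 ratio 1.77, 1.74 to 1.81). Tnfaip6, which links hyaluronan to other matrix proteins, stood at 228 against 48.3 CPM (2.24). Cd44, a hyaluronan receptor, stood at 263 against 116 CPM, and Has1 and Has2, which make hyaluronan, differed by 1.30 and 1.91 (log2). Acan and Hapln1, the link protein of aggrecan, were lower than in the other 2 sets, by log2 ratios of -1.25 and -2.21 against Hp Apod Notum cells. Of 10 small leucine-rich proteoglycans, 7 were lower than in Clec3b Cilp2 cells and 0 higher (median -1.54), among them Dcn, decorin, at 1084 against 6481 CPM and Fmod, fibromodulin, at 2455 against 9298 CPM. Both bind type I collagen fibrils.

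**Figure D3:**
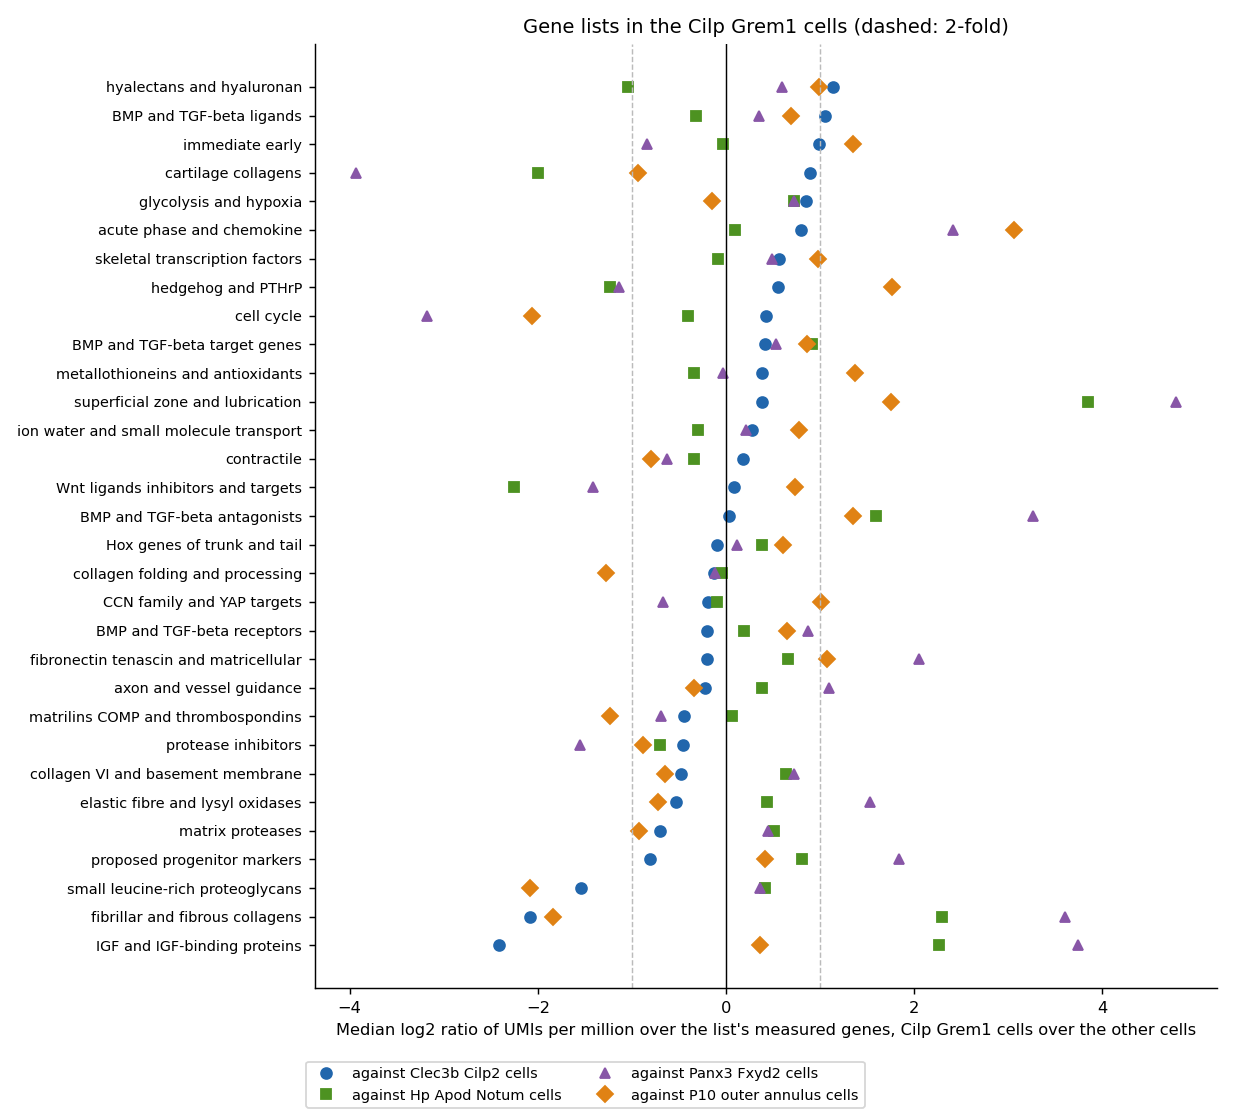
Median log2 ratio of each gene list (rows) over its measured genes, Cilp Grem1 cells over each of 4 other sets (symbols), with dashed lines at a 2-fold difference. Fibrous collagens lie at -2.08 against Clec3b Cilp2 cells and at 3.61 against Panx3 Fxyd2 cells, while cartilage collagens lie at 0.89 and -3.94.

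A list of superficial-zone genes, known from the joint surface, stood near the level of Clec3b Cilp2 cells and above that of both other sets at 8 weeks. Without the genes of the rules, its 8 measured members had a median log2 ratio of 0.22 against Clec3b Cilp2 cells, 3.07 against Hp Apod Notum cells and 3.30 against Panx3 Fxyd2 cells. Clu, clusterin, an extracellular chaperone, stood at 3045 CPM in Cilp Grem1 cells, against 1873, 279 and 83.2 CPM in the sets as ordered above. Abi3bp, a matrix-binding protein, stood at 1450 CPM against 1388, 41.7 and 10.1. Sod3, extracellular superoxide dismutase, stood at 320 CPM against 246, 7.95 and 3.31. Prg4, lubricin, chose the Clec3b Cilp2 cells and was at 134 CPM in Cilp Grem1 cells against 585 CPM there.

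Among secreted signals, Inhba, Gdf5 and Gdf6 were higher in the Cilp Grem1 cells than in each of the 3 other sets at 8 weeks, whereas Gdf10 was lower than in the Hp Apod Notum and Panx3 Fxyd2 cells. Inhba, the activin A subunit, stood at 1347 CPM in Cilp Grem1 cells, against 132 in Clec3b Cilp2, 150 in Hp Apod Notum and 80.5 in Panx3 Fxyd2 cells, and was found in 74.9% of the cells. The log2 ratios were 3.35 (3.27 to 3.43), 3.16 and 4.07. Gdf5, a ligand of joint formation, stood at 42.6 CPM in Cilp Grem1 cells, against 3.72, 2.39 and 0.405 CPM, and Gdf6, its close relative, at 26.0 CPM against 1.17 CPM in Clec3b Cilp2 cells. Both were found in a minority of the cells, Gdf5 in 21.9% and Gdf6 in 17.1%. Of 9 measured BMP and TGF-beta ligands, 5 were higher than in Clec3b Cilp2 cells and 2, Tgfb2 and Tgfb3, were lower. Against Hp Apod Notum cells 4 of 12 were higher and 5 lower (median log2 ratio -0.31), and against Panx3 Fxyd2 cells 4 of 11 were higher and 3 lower (0.35). Gdf10, a BMP3-related ligand, stood at 0.176 CPM in Cilp Grem1 cells, against 1.96, 17.2 and 77.0 CPM in the 3 sets as ordered above.

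Against the Clec3b Cilp2 cells the antagonists were mixed. Of 12 measured, 3 were higher and 4 lower. Of the lower genes Cilp2 belonged to the rule of the Clec3b Cilp2 cells, and of the higher genes Grem1 and Cilp belonged to that of the Cilp Grem1 cells. The remaining one was Chrdl2, a chordin-like BMP antagonist, at 96.2 CPM in Cilp Grem1 cells against 9.20 CPM in Clec3b Cilp2 cells (log2 ratio 3.39). Fst, follistatin, which binds activin, stood at 2.02 CPM against 29.9 CPM there (-3.89). Of 11 measured receptors 1 was higher and 2 were lower than in Clec3b Cilp2 cells. Against Hp Apod Notum cells 6 of 12 antagonists were higher and 2 lower, and against Panx3 Fxyd2 cells 7 of 11 and 2. Grem1, Cilp and Cilp2, genes of the rules, were among the higher antagonists in both. Of 10 receptors, 2 were higher and 2 lower than in Hp Apod Notum cells, and 5 and 1 against Panx3 Fxyd2 cells.

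Among Wnt genes, secreted inhibitors split. Frzb stood at 306 CPM in Cilp Grem1 cells against 131 CPM in Clec3b Cilp2 cells (log2 ratio 1.22), and Sfrp5 at 117 against 27.3 CPM (2.11). Sfrp2 stood at 0.527 CPM in Cilp Grem1 cells, in 0.292% of cells, against 7.17% of Clec3b Cilp2 cells (-5.83, -7.29 to -4.69). Against Hp Apod Notum cells 7 of 12 Wnt genes were lower and 0 higher, and Notum and Lef1 among them chose those cells. Of 6 measured genes of IGF1, its receptor and the IGF-binding proteins, 4 were lower than in Clec3b Cilp2 cells and 0 higher. The lower genes were Igf1, Igfbp4, Igfbp5 and Igfbp6, the last a gene of that rule, while Igfbp7 and Igf1r were within 2-fold. Igfbp4 stood at 72.4 against 638 CPM, and Igfbp5 at 56.8 against 349 CPM. Against Hp Apod Notum and against Panx3 Fxyd2 cells, 4 of 6 were higher and 1, Igf1, was lower.

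Transcription factors of cartilage and tendon were both present. Sox9, the master regulator of chondrocytes, stood at 2464 CPM in Cilp Grem1 cells, against 648 in Clec3b Cilp2, 3077 in Hp Apod Notum and 2489 in Panx3 Fxyd2 cells. The log2 ratio to Clec3b Cilp2 cells was 1.93 (1.89 to 1.97), and that to Panx3 Fxyd2 cells was -0.01 (-0.04 to 0.01). Scx, the tendon regulator scleraxis, stood at 62.5 CPM in Cilp Grem1 cells, against 110, 6.36 and 5.67 CPM. Tnmd, tenomodulin, a membrane protein of tendon cells, stood at 223 CPM against 1181, 5.91 and 8.51 CPM. After each cell was thinned to 2000 UMIs, Sox9 was found in 88.0% of Cilp Grem1 cells and in 54.6% of Clec3b Cilp2 cells, against 99.0% and 86.3% unthinned, and Tnmd in 29.5% and 75.8%, against 60.4% and 91.7% unthinned. Runx1 stood at 510 CPM in Cilp Grem1 cells against 196 CPM in Clec3b Cilp2 cells (1.38), and Barx2 at 123 against 22.3 CPM (2.46). Of 20 measured skeletal factors 8 were higher and 2 lower.

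Immediate early genes, whose products include the AP-1 subunits, were higher than in Clec3b Cilp2 cells in 8 of 16 measured members and lower in 0, with a median log2 ratio of 0.99. Junb stood at 3068 CPM in Cilp Grem1 cells against 1267 CPM in Clec3b Cilp2 cells (1.28), Fosl1 at 125 against 27.7 CPM (2.17) and Atf3 at 1412 against 685 CPM (1.04). Fos itself did not follow, at 1544 CPM in Cilp Grem1 cells and 1614 CPM in Clec3b Cilp2 cells (-0.06, -0.09 to -0.03). Against Hp Apod Notum cells 1 of 17 was higher and 2 were lower, and against Panx3 Fxyd2 cells 2 were higher and 8 lower. The list was thus above the Clec3b Cilp2 cells and near or below the Hp Apod Notum and Panx3 Fxyd2 cells. The AP-1 motif of the Mmp3 and Dmkn windows shown above stands beside these levels as a description.

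Glycolysis and hypoxia genes were higher than in Clec3b Cilp2 cells in 7 of 20 measured members and lower in 0 (median log2 ratio 0.85). Hk2, a hexokinase, stood at 491 CPM in Cilp Grem1 cells and 100.3 CPM in Clec3b Cilp2 cells (2.29, 2.20 to 2.39). Slc2a1, a glucose transporter, stood at 167 against 37.6 CPM (2.15), and Ndrg1, a hypoxia-responsive gene, at 328 against 120 CPM (1.45). Against Hp Apod Notum cells 7 of 22 of these genes were higher and 3 lower, with Slc2a1 among the lower. Against Panx3 Fxyd2 cells 9 of 21 were higher and 2 lower. Of 19 measured Hox genes of trunk and tail, 0 differed 2-fold from Clec3b Cilp2 cells in either direction. Of 20 measured, 6 were higher and 1 lower than in Hp Apod Notum cells, and 5 were higher and 1 lower than in Panx3 Fxyd2 cells.

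Acute phase and chemokine genes were higher than in Clec3b Cilp2 cells in 7 of 16 measured members and lower in 3. Against Hp Apod Notum cells 6 of 16 were higher and 7 lower, and against Panx3 Fxyd2 cells 10 of 16 were higher and 6 lower. Ptgs2, Lcn2 and Il6 were higher than in Clec3b Cilp2 cells but lower than in Hp Apod Notum cells. Ccl2, a chemokine that draws monocytes, stood at 741 CPM in Cilp Grem1 cells against 168 CPM in Clec3b Cilp2 cells (2.14), and Cxcl2, a chemokine that draws neutrophils, at 428 against 124 CPM (1.79). Ccl2 was found in 29.6% of the cells and Cxcl2 in 22.3%. Of 7 macrophage markers, C1qa, C1qc and Adgre1 were at 0 in the Cilp Grem1 cells and the sum of the list was 9.30 CPM, against 5.87 CPM in Clec3b Cilp2 cells. The 6 neutrophil markers summed to 5.00 CPM against 2.55 CPM.

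The genes with the largest ratios to the Clec3b Cilp2 cells, named by the lower bound of the interval, were mostly carried by a minority of cells. Nos1, a nitric oxide synthase, stood at 43.1 CPM in Cilp Grem1 cells and 1.47 CPM in Clec3b Cilp2 cells (log2 ratio 4.88, 4.14 to 5.72), and was found in 34.9% of Cilp Grem1 cells. Krt16, a keratin, stood at 398 against 18.5 CPM (4.43) in 37.5% of cells, but Hp Apod Notum cells held 677 CPM. Saa1, a serum amyloid protein, stood at 328 against 3.23 CPM (6.67) in 12.6% of cells, and 13 cells held the larger part of its UMIs. Bdkrb2, a bradykinin receptor, stood at 32.8 against 0.979 CPM (5.07), and Pgm5 at 21.7 against 0.490 CPM (5.47). Ms4a4c, Padi2, Gdf6, Mgarp and Mmp12 completed the 10 highest, with log2 ratios of 4.40 to 5.96. Among the 10 lowest were Sfrp2, Ptgfr, Tmem119, Serping1, Col14a1, Flrt2, Camk4, Dlx5 and Aqp1. Aqp1, a water channel, stood at 5.97 CPM in Cilp Grem1 cells against 80.2 CPM in Clec3b Cilp2 cells (-3.75), and Col14a1, a fibril-associated collagen, at 0.702 against 20.8 CPM (-4.89).

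Against the Hp Apod Notum and Panx3 Fxyd2 cells, secreted and matrix proteins were among the 10 highest genes. Vcan was among the 10 highest in both, with log2 ratios of 6.34 (6.22 to 6.46) to Hp Apod Notum cells and 7.62 (7.48 to 7.77) to Panx3 Fxyd2 cells. Sbsn, suprabasin, a secreted protein of stratified epithelium, stood at 4665 CPM in Cilp Grem1 cells, against 1459 in Clec3b Cilp2, 79.6 in Hp Apod Notum and 52.9 in Panx3 Fxyd2 cells, and was found in 99.4% of Cilp Grem1 cells. Serpine2, an inhibitor of serine proteases, stood at 1674 CPM in Cilp Grem1 cells against 16.1 CPM in Panx3 Fxyd2 cells (6.70). Mgp, matrix Gla protein, which limits mineralisation, was among the 10 lowest against Hp Apod Notum cells, at 640 CPM in Cilp Grem1 cells and 38798 CPM there (-5.92). Ihh, Indian hedgehog, was among the 10 lowest against Panx3 Fxyd2 cells, at 0.614 CPM in Cilp Grem1 cells and 173 CPM there (-8.14, -9.46 to -7.09). Col10a1, the collagen of hypertrophic cartilage, stood at 156 CPM in Cilp Grem1 cells and 3480 CPM in Panx3 Fxyd2 cells, and 3 cells held the larger part of its UMIs in the Cilp Grem1 set.

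The rule found 72 cells among 6999 at P10, which is 1.03% (0.806 to 1.29) against 10.6% at 8 weeks. Age and library cannot be told apart here, and the P10 cells of the rule were deeper. Between the Cilp Grem1 cells at 8 weeks and those 72 cells, 2082 of 8270 genes (25.2%) were higher at 8 weeks and 376 (4.55%) lower, with a median gene at 0.39 (log2) and a split of 1266 higher and 864 lower when centred on it. The genes of the rule were lower at P10 in the cells it chose, with Grem1 at 1679 CPM at 8 weeks against 184 CPM at P10 and Cilp at 1069 against 189 CPM. The rule asks for 2 UMIs at any depth, and the P10 cells had a median of 34632.5 UMIs against 13464. The P10 cells could thus pass at a lower CPM, so the rule can fix part of this difference. Vcan stood at 5364 CPM at 8 weeks and 479 CPM at P10 (log2 ratio 3.49, 3.41 to 3.57). Col2a1 went the other way, at 25383 CPM at 8 weeks and 96385 CPM at P10 (-1.92), while Col1a1 was close, at 14431 and 13107 CPM (0.14). Spp1, osteopontin, stood at 15238 CPM at 8 weeks and 181 CPM at P10 (6.39, 6.27 to 6.52). Epyc, epiphycan, a cartilage proteoglycan, stood at 4.04 CPM at 8 weeks and 358 CPM at P10 (-6.47), and Tnc, tenascin C, at 0.966 against 54.8 CPM (-5.83). Gdf5 was lower at 8 weeks, at 42.6 against 176 CPM (-2.05), whereas Inhba was within 2-fold, at 1347 against 893 CPM (0.59).

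Against the P10 outer annulus cells, 2226 of 9422 genes (23.6%) were higher in the Cilp Grem1 cells and 749 (7.95%) lower, with a median gene at 0.37. Centred on it the split was 1314 higher and 1251 lower. These P10 cells were chosen by other genes than the Cilp Grem1 cells, so choice of cells, age and library cannot be told apart here. Of 10 fibrous collagens 6 were lower and 1 higher, with Col1a1 at 14431 CPM in Cilp Grem1 cells against 76814 CPM in P10 outer annulus cells (-2.41). Of 17 collagen folding and processing genes 11 were lower and 2 higher. Matrix genes were among the 10 lowest, with Postn, periostin, at 1.05 against 172 CPM (-7.35), Cthrc1 at 1.14 against 263 CPM (-7.85) and Fbn2, fibrillin 2, at 0.176 against 88.7 CPM (-8.98). Kera was also among them, but it chose the P10 cells. Sox9 was higher, at 2464 CPM in Cilp Grem1 cells against 360 CPM (2.78), and so were 12 of 15 acute phase and chemokine genes, with 2 lower (median 3.07). Myoc, myocilin, stood at 990 against 5.62 CPM (7.46) and Tfpi2, a protease inhibitor of the matrix, at 133 against 1.13 CPM (6.89). Of 16 immediate early genes 11 were higher and 0 lower, with Junb at 3068 against 377 CPM (3.03).

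By the variance divided by the mean, a ratio that can rise with the level of a gene, collagens and mineral-related genes ranked among the highest in the Cilp Grem1 cells. It was read in 656 cells thinned to 5000 UMIs, with 29 shallower cells left out. It was 83.9 for Col1a1, 78.5 for Spp1, 76.8 for Sparc, 66.2 for Col1a2 and 58.4 for Col2a1, against a median of 1.25 over 1304 genes. These genes had high means, from 63.2 UMIs per thinned cell for Col1a1 to 339 for Sparc, where the ranked genes needed only 0.5. Mgp and Ibsp, bone sialoprotein, had ratios of 140 and 87.5, but 4 cells held the larger part of the Mgp UMIs and 2 cells that of Ibsp. Across the 656 cells of 1 library, which share depth and free RNA, Col1a1 and Col1a2 had a Spearman correlation of 0.93, Col1a1 and Spp1 of 0.71, and Col1a1 and Col2a1 of 0.47. Vcan and Col1a1 had -0.34. The rule genes had correlations between -0.19 and 0.14 with one another, in cells that the rule chose by these same genes. In the 225 cells with at least 10 Cilp UMIs Col1a1 stood at 8842 CPM, against 18204 CPM in the 295 cells with 0.

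Clustering of the 685 cells on variable genes, with the genes of the rules left out, gave 6 sub-groups. They are described and not tested, since the clustering could use the other genes named here and cells of 1 library are not replicates. Sub-group 3 (127 cells, 18.5%) had the highest level of Cilp and the lowest level of Col1a1 among the 5 larger sub-groups. Its Col1a1 was near the 1279 CPM of the Hp Apod Notum cells. Cilp stood at 3115 CPM in sub-group 3, Vcan at 7344 and Col1a1 at 1404, against 437 to 771 CPM of Cilp, 4171 to 7355 of Vcan and 9513 to 22906 of Col1a1 in the other 4 larger sub-groups. Gdf5 stood at 165 CPM in sub-group 3, against 4.23 to 42.1 CPM in those 4, and Inhba at 4201 against 154 to 1421 CPM. Pthlh, a peptide that holds back cartilage maturation, stood at 59.7 CPM in sub-group 3 and 1.49 CPM in the rest of the cells, and Hhip, a hedgehog-binding protein, at 71.6 and 4.38 CPM. Cilp2 and Clec3b, of the Clec3b Cilp2 list, stood at 283 and 0.987 CPM in it. Gdf5 and Inhba, both higher in the whole set than in the other sets at 8 weeks, were thus unevenly spread over its sub-groups.

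Sub-group 4 (108 cells) was led by Rnd1 and by chemokine genes. Ccl2 stood at 2410 CPM in it and 308 CPM in the rest of the cells, Cxcl1, another neutrophil chemokine, at 2389 and 589 CPM, and Nos2, the inducible nitric oxide synthase, at 142 and 17.1 CPM. Tlr2, a receptor of bacterial products, stood at 900.2 and 185 CPM, and Mmp3 was at 2138 CPM, the highest of the 6. Sub-group 1 (198 cells) was led by Fos, at 3537 CPM in it and 694 CPM in the rest, with Angptl7 at 623 and 137 CPM. Its leading gene by ratio was Pecam1, an endothelial marker, of which 1 cell held 33.3% of the UMIs, and the 6 endothelial markers summed to 18.3 CPM over all Cilp Grem1 cells, against 21.4 CPM in Clec3b Cilp2 cells. Sub-group 2 (181 cells) was led by Il6, found in 7.73% of its cells, and Chrdl2, at 175 and 70.1 CPM. Sub-group 5 (65 cells) was the shallowest, with a median of 9503 UMIs, and had Grem1 at 2982 CPM, Sox9 at 498 CPM and Fos at 963 CPM. Sub-group 6 held 6 cells with Matn3, Col9a1 and Mgp, at 2256, 2866 and 23439 CPM, and Cilp at 116 CPM, which sets these cells apart from the label.

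**Figure D4:**
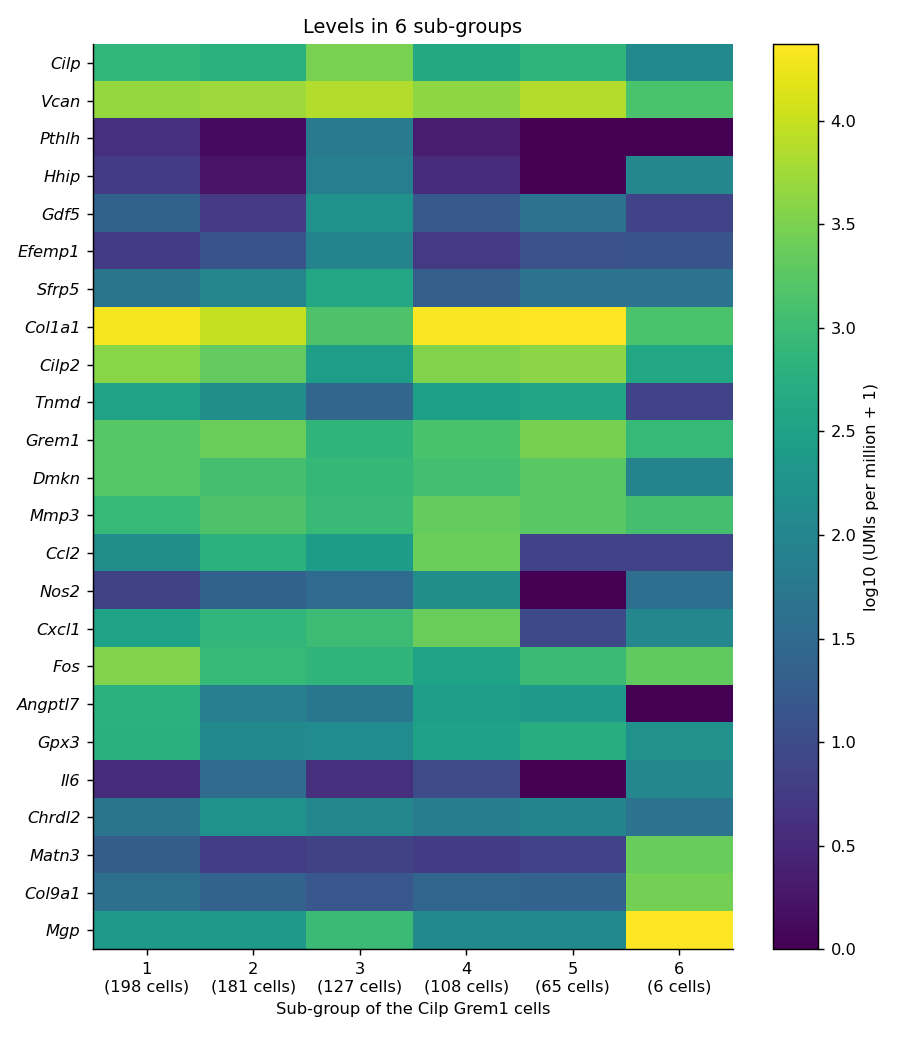
Levels of selected genes (UMIs per 1000000 gene UMIs, log scale) in the 6 sub-groups of the Cilp Grem1 cells. Sub-group 3 has Cilp at 3115 and Col1a1 at 1404, and sub-group 4 has Ccl2 at 2410.

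The label of an annulus cell was read against marker lists. The 7 tendon fibroblast markers summed to 17314 CPM in Cilp Grem1 cells, against 86139 CPM in Clec3b Cilp2, 2680 CPM in Hp Apod Notum and 2546 CPM in Panx3 Fxyd2 cells. The 8 chondrocyte markers summed to 33054 CPM, against 12296, 43104 and 80742 CPM. Col1a1 and Fmod made up nearly all of the tendon sum, and Col2a1 made up most of the chondrocyte sum. Matn3, of the chondrocyte list, was found in 8.54% of the cells outside sub-group 6. In sub-group 3 Tnmd stood at 26.2 CPM and Col1a1 at 1404 CPM. The set as a whole thus held Col1a1 and Fmod together with Col2a1, though not every marker of either list was common. The data carry no position in the disc. The 7 nucleus pulposus markers summed to 383 CPM against 195, 430 and 314 CPM, led by Cd24a. The 7 osteoblast markers, which include Col1a1, summed to 30033 CPM in Cilp Grem1 cells, against 114892, 7726 and 2886 CPM, and 667 of the Cilp Grem1 cells held at least 10 of their UMIs. Spp1 and Col1a1 made up nearly all of that sum, while Sp7, the osteoblast regulator, stood at 1.67 CPM, Bglap, osteocalcin, at 5.71 CPM and Dmp1 at 0.0878 CPM. The 7 connective fibroblast markers summed to 1220 CPM against 5672, 325 and 89.6 CPM, led by Col3a1, with at least 10 UMIs in 314 Cilp Grem1 cells. Pi16 and Dpp4 of that list were at 0 in both Cilp Grem1 and Clec3b Cilp2 cells. The 7 mural markers summed to 386 CPM against 306, 468 and 507 CPM, led by Cspg4, with at least 10 UMIs in 148 Cilp Grem1 cells and Higd1b at 0. The 5 synovial lining markers summed to 883 CPM against 795, 1448 and 594 CPM, led by Hbegf in Cilp Grem1 cells. With at least 10 UMIs of another class's markers 147 Cilp Grem1 cells were found, and 2 when Cspg4, which most cells of these sets carried, was not counted. The part of such cells in the results was not tested beyond leaving them out.

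The reporter of the lineage label was low in these cells. WPRE4, a sequence of the reporter transcript, stood at 78.6 CPM (73.6 to 84.0) in Cilp Grem1 cells, against 79.7 in Clec3b Cilp2, 57.6 in Hp Apod Notum and 66.2 in Panx3 Fxyd2 cells. The 2403 cells over the Car3 or keratin limits held 2396 CPM. The 94 blood-type cells, which should lack a Tagln label, held 130 CPM (106 to 159), but 1 of them carried 55 of their 98 UMIs. That cell also held 224 Car3 UMIs, since the Car3 and keratin limits were not applied to the blood-type cells. At least 10 WPRE4 UMIs were found in 5 of 685 Cilp Grem1 cells (0.730%), against 57.2% of the Car3 or keratin cells. Without cells of at least 10 UMIs the level was 66.2 CPM (61.5 to 71.1) in Cilp Grem1 cells and 59.7 CPM (43.2 to 80.4) in blood-type cells, so that the intervals overlapped. At least 1 WPRE4 UMI was found in 60.0% of Cilp Grem1 cells (median 13464 UMIs) and in 28.7% of blood-type cells (median 6854 UMIs). After thinning to 2000 UMIs the shares were 14.4% (11.8 to 17.2) of 682 Cilp Grem1 cells and 3.85% (0.80 to 10.8) of 78 blood-type cells, against 65.4% of Car3 or keratin cells. The share in Clec3b Cilp2 cells was 12.5%, in Hp Apod Notum cells 11.9% and in Panx3 Fxyd2 cells 13.5%, each within the interval of the Cilp Grem1 cells. TDT, the coding part of tdTomato, had 3 UMIs in 2 of the Cilp Grem1 cells, and CRE and EGFP had 0, which allows a share of cells with a UMI of up to 0.438%. By level without cells of at least 10 UMIs, the Cilp Grem1 cells could thus not be told from the blood-type cells, while at 2000 UMIs their share of cells with a UMI was above that of the blood-type cells, with intervals that did not overlap. Tagln itself stood at 8.25 CPM in Cilp Grem1 cells, against 5.97, 10.8 and 13.3 CPM in the other sets and 75.7 CPM in the Car3 or keratin cells.

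**Figure D5:**
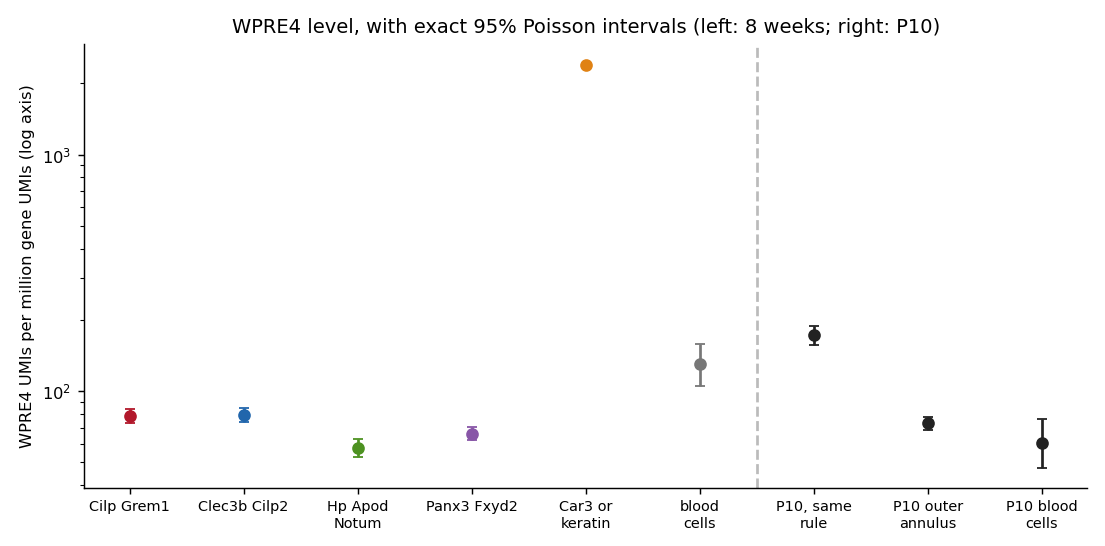
WPRE4 level (UMIs per 1000000 gene UMIs, log axis) with exact 95% Poisson intervals, in sets of cells at 8 weeks (left) and P10 (right). The Cilp Grem1 cells lie at 78.6, near Clec3b Cilp2 cells at 79.7, below blood-type cells at 130, of which 1 cell carried 55 of 98 UMIs, and far below the Car3 or keratin cells at 2396.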

How the data were processed

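Per the labels and the submitters' processing notes, the authors aligned reads to mm10; the notes name Cell Ranger 3.1.0 and Seurat 3 without a stated role. The deposited gene matrices hold raw UMI counts, 1 per age over 31053 genes, and a second matrix per age holds counts of exogenous sequences (TDT, WPRE4, CRE, EGFP), joined by barcode. The deposited lists of barcodes and features hold other content, the text names of cells and genes. Positions are from GENCODE and matched 30934 of 31053 gene IDs; promoters are from RefSeq.

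Cells were chosen by the rule with no clustering, and counts were summed per set and scaled to CPM. Intervals are exact, at 95%: Poisson for levels, Clopper-Pearson for shares and conditional binomial for ratios. For a share of 0 the limit is that of 3 counts. Ratios use genes with at least 100 UMIs over both sums added together. The 10 highest and 10 lowest genes of a contrast, ranked by the interval bound nearest 0, were named with the members of 31 gene lists; 1 of these genes is not reported here. Sub-groups are Leiden clusters; Scrublet used an expected rate of 6%. The ratio step was tested on simulated sums that held counting error only, so that test does not cover spread between cells. Members and lists were chosen with earlier results of these data known. Python 3.11.15, numpy 2.4.6, scipy 1.17.1, pandas 2.3.3, Scanpy 1.11.5, leidenalg 0.10.2 and matplotlib 3.10.9 were used. Alternatives tried were other rule limits, cell filters, doublets, cells with markers of another class, scalings, thinning and low-count filters.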

Additional observations from a re-analysis of the deposited data

How the results depend on the processing

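Of 274 list medians and ratios of named genes, 167 were past 2-fold, and 6 of their 2252 values over 14 settings had the other sign, all of them list medians. By construction thinning leaves fewer measured genes and dropping the low-count filter leaves more; beyond that the cause was not tested. Against Panx3 Fxyd2 cells the Wnt median was 1.92 without cells holding markers of another class and 1.27 after thinning to 2000 UMIs (main -1.42), and that of protease inhibitors was 0.017 after thinning (main -1.55). Thinning gave 0.0011 for hyalectans against Hp Apod Notum cells (main -1.04) and 1.14 for cell cycle genes against P10 outer annulus cells (main -2.07). With no low-count filter the IGF median against Hp Apod Notum cells was -0.34 (main 2.26). The rule gave 426 cells with at least 4 rule genes in place of 685, and at P10 116 cells with 1 UMI per gene, 22 with at least 4 genes, 158 with at least 2 and 29 among cells of 8000 to 30000 UMIs, in place of 72. WPRE4 was 84.6 CPM without cells holding markers of another class, 84.0 CPM in cells of 8000 to 30000 UMIs and 66.2 CPM without cells of at least 10 WPRE4 UMIs, the last 2 settings and the thinned WPRE4 shares being chosen after seeing the data.

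Counts of genes higher and lower in Cilp Grem1 cells moved with the genes measured. Thinning gave 424 and 105 against Clec3b Cilp2, 333 and 343 against Hp Apod Notum, 462 and 372 against Panx3 Fxyd2, 731 and 337 against P10 outer annulus cells and 556 and 140 against the same rule at P10. A minimum of 20 UMIs gave 1484 and 645, 1307 and 2010, 2506 lower, 3413 and 1227, and 3514 and 633 in the same order. No minimum gave 3854 and 2130, 2796 and 5083, 3086 and 6032, 6346 and 2751, and 7327 and 1580. Centring on the median gene gave 1314 and 1251 against P10 outer annulus cells and 1266 and 864 against the same rule at P10. No paired analysis was possible because the 4 samples of an age share 1 matrix, and for the same reason no sample could be left out.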
